A study of Homo sapiens with 6 samples.

Results

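Human cells cut microRNAs out of long transcripts and load them, and any transfected small interfering RNA (siRNA), into Argonaute proteins. The 10 genes described here encode the core of that machinery: the microprocessor (DROSHA, DGCR8), the export receptor exportin 5 (XPO5), the Dicer complex (DICER1, TARBP2, PRKRA) and the 4 Argonautes (AGO1, AGO2, AGO3, AGO4). They were taken by gene name from the 39554 genes of the count table, and each matched 1 row. All 10 passed the filter on low counts.

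The libraries were made from poly(A) RNA of the colorectal cancer line SW620, a human cell line in long use. Cells of both groups received siRNA with a lipid transfection reagent and were collected 72 h later. This was negative-control siRNA in 3 libraries (siNC) and siRNA against SOWAHA in the other 3 (siSOWAHA). The labels do not say whether the 3 siSOWAHA libraries were given the same siRNA or different ones. The series is about SOWAHA, an ankyrin repeat gene, as a tumour suppressor that influences metabolism. Untransfected cells were not analysed here, so that a change common to any siRNA transfection is not seen in this comparison, and the labels do not give the siRNA sequences.

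The microprocessor, made of the nuclease DROSHA and its RNA-binding partner DGCR8, cuts a hairpin precursor out of the primary transcript in the nucleus. XPO5 carries the hairpin to the cytoplasm, where DICER1, with TARBP2 or PRKRA, cuts it to a short duplex, and an Argonaute keeps one strand as a guide that pairs with target mRNAs mainly through its seed. A synthetic siRNA skips the nuclear steps and is loaded into Argonautes directly. AGO2 is the Argonaute best known for slicing a fully paired target, the reaction on which siRNA knockdown rests.

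The machinery is tied to its own products in known feedback loops, and the sequences below are those that can be read next to the values of DGCR8 and DICER1. Hairpins within the DGCR8 mRNA are themselves cut by the microprocessor, which lowers that mRNA. The mature microRNAs annotated there are shown with the seed (bases 2 to 8) in capitals, from RefSeq on GRCh38.p14.
hsa-miR-3618: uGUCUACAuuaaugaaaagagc
hsa-miR-1306-5p: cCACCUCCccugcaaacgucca
hsa-miR-1306-3p: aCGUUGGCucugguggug
The first lies at chr22:20085797-20085818, the second at chr22:20086072-20086093 and the third at chr22:20086112-20086129, all on the plus strand like DGCR8. The miR-3618 hairpin lies in an exon, outside the coding sequence, in 3 of the 4 protein-coding DGCR8 transcripts of GENCODE 29. The miR-1306 arms lie in a coding exon in 4 of 4.

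DICER1 is a known target of miR-103 and miR-107, which share the seed GCAGCAU.
hsa-miR-103a-3p: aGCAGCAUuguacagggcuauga
hsa-miR-107: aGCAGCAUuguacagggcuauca
The reverse complement of that seed, ATGCTGC, was searched on the transcript strand of the longest annotated 3' untranslated region (3' UTR) of each gene (GENCODE 29, GRCh38). It overlaps by 6 letters with the TGCTGCT match of miR-15a and miR-16. It occurs 5 times in the 4270-base 3' UTR of DICER1, shown with the match in capitals and named by the position of its first base in the UTR.
DICER1 UTR base 1034: cacacctaaaatATGCTGCagatttta
DICER1 UTR base 1635: atgcttcgtggaATGCTGCatttatat
DICER1 UTR base 2839: gcagtcctaactATGCTGCgttttata
DICER1 UTR base 4110: atttaccatcacATGCTGCagctgttt
DICER1 UTR base 4162: catacagtaatcATGCTGCagaaattt
On the minus strand of GRCh38, the first window is chr14:95089450-95089476, the second chr14:95088849-95088875, the third chr14:95087645-95087671, the fourth chr14:95086374-95086400 and the fifth chr14:95086322-95086348. Of 13262 searched 3' UTRs of tested genes 1856 hold ATGCTGC, and of 1663 with a length within 25% of that of DICER1 27.9% do. AGO1, the other member whose matches are printed here, holds 3 in a 3' UTR of 10921 bases, and 52.8% of 216 UTRs of like length hold any.
AGO1 UTR base 793: cctgtaacggtaATGCTGCagaactgc
AGO1 UTR base 9428: caaatatactgaATGCTGCtatgtgcc
AGO1 UTR base 9943: ttaccctgtcagATGCTGCtaccaaga
These lie on the plus strand at chr1:35920388-35920414, chr1:35929023-35929049 and chr1:35929538-35929564. The windows at bases 9428 and 9943 also hold the whole TGCTGCT match of miR-15a and miR-16, and they lie within the deposited span of AGO3. AGO2 holds 5 matches, AGO4 holds 2 and AGO3 holds 1, while among UTRs of their length 55.2%, 27.9% and 69.6% hold any. The other 5 members hold none. The match of the let-7 seed, CTACCTC, which 11.1% of the 13262 UTRs hold, occurs once each in TARBP2, AGO1 and AGO3 and 2 times in AGO2. Among UTRs of like length the shares that hold it are 3.0% for TARBP2, 44.9% for AGO1, 46.4% for AGO3 and 49.1% for AGO2. A match is a string of letters, and no microRNA was measured in these poly(A) libraries.

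Total counts ranged from 49937395 to 59474396 per library. SOWAHA, the targeted gene, lay between 32.3 and 39.4 CPM (counts scaled to a common library size with TMM factors) in siNC and between 6.85 and 8.96 CPM in siSOWAHA, so that 22.1% was left. Of 12 colorectal epithelium markers, 11 were tested and CDX1 was at 0. Their summed level was 9522.8 to 9827.8 CPM in siNC and 8883.3 to 8992.8 in siSOWAHA. Most of this sum was KRT8 and KRT18, with siNC means of 5231.2 and 2491.2 CPM. KRT20, LGALS4 and GPA33 had siNC means of only 0.642, 0.416 and 0.44 CPM. Of the markers 5 were lower (CDH1, KRT8, KRT19, CDX2 and CDH17) and 0 higher. With 1 library left out, CDH1 was called only without siNC replicate 1 (edgeR adjusted p up to 0.193 otherwise). Of 8 fibroblast markers 5 were tested, and only LUM was called, higher, with means of 61.1 CPM in siNC and 76.4 CPM in siSOWAHA. COL1A1 (9.18 against 6.96 CPM, edgeR adjusted p = 0.0594) and PDGFRB (2.13 against 1.55 CPM, edgeR adjusted p = 0.205) were lower without overlap. The sum, most of it LUM, was 70.1 to 77.0 CPM in siNC and 80.0 to 93.0 CPM in siSOWAHA, so it does not describe the markers as a set. The 8 leukocyte markers summed to 13.4 to 14.9 against 11.9 to 13.9 CPM with PTPRC, CD3E and MS4A1 among those at 0, and the 6 endothelial markers to 1.7 to 2.73 against 1.61 to 2.88 CPM with CDH5, TEK and ERG at 0. The part of these marker shifts in the results below was not tested.

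The first question was whether cells given siRNA against SOWAHA held other amounts of small-RNA machinery transcripts than control cells. The nuclease gene DROSHA and the Argonaute gene AGO1 were higher in siSOWAHA, by 1.17-fold and 1.16-fold, and the other 8 members did not pass the test. Counts were compared with edgeR's quasi-likelihood test, a two-sided test, and p-values were adjusted by Benjamini-Hochberg over all 17693 genes kept, with 0.05 as the threshold. With it 2 of 10 members were called higher, where 9.12% of all tested genes were, and 0 of 10 were called lower, where 7.77% were. At an unadjusted p under 0.05 the edgeR counts were also 2 and 0, and DESeq2 and limma-voom each called 2 higher and 0 lower as well. The median log2 fold change of the members was 0.017, beside -0.008 over all tested genes. In either direction 16.9% of all tested genes were called, and 25.0% of the 8104 genes whose level lay within the members' range, so that 2 of 10 is near the background.

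The CPM values of the groups did not overlap for 4 members, all higher in siSOWAHA (DROSHA, DICER1, AGO1 and AGO3), where 16.7% of all tested genes were higher without overlap. None was lower without overlap, where 16.3% of all genes were; in either direction the background is 33.0%. Separate cultures are not named in the labels, so a p-value here weighs a difference against the spread of these libraries alone, and that spread may be technical.

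**Figure D1:**
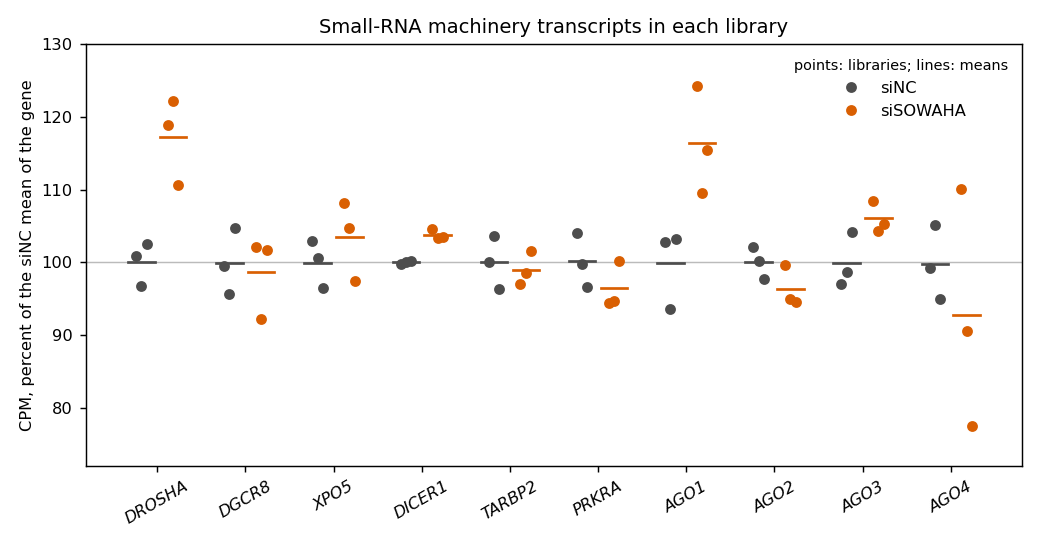
CPM of each of the 10 genes in each library, as a percent of that gene's siNC mean (vertical axis), with genes along the horizontal axis by role; points are libraries and lines are group means of 3. The 3 siSOWAHA points of DROSHA and of AGO1 lie above all siNC points, with means at 117.2% and 116.4%, while the points of DICER1 sit close together and those of AGO4 are spread widely.

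DROSHA (Entrez gene 29102, GRCh38 chromosome 5, 31400494 to 31532142, minus strand) encodes the RNase III enzyme that makes the first cut. It had 134.9, 129.5 and 137.2 CPM in siNC replicates 1, 2 and 3, and 159.1, 163.4 and 148.1 CPM in siSOWAHA replicates 1, 2 and 3. Every siSOWAHA library lay above every siNC library, and the lowest of them, replicate 3, was still above the highest control. The log2 fold change was 0.23 (SE 0.042, 95% interval 0.14 to 0.32; edgeR adjusted p = 0.0014), from 133.8 ± 3.97 to 156.9 ± 7.89 CPM (SD, n = 3 each). In bulk RNA, more cells that carry a transcript and more of it per cell cannot be told apart. DROSHA kept its call in all 15 other fits, at log2 fold changes of 0.20 to 0.27.

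DGCR8 (gene 54487, chromosome 22, 20080241 to 20111872, plus strand), the partner that grips the hairpin, did not pass the test. Its levels were 68.3, 65.6 and 71.8 CPM in siNC and 70.0, 63.3 and 69.8 CPM in siSOWAHA. The groups overlapped, and replicate 2 was the lowest of each group. The log2 fold change was -0.02 (SE 0.051; edgeR adjusted p = 0.865), and its 95% interval of -0.13 to 0.09 spans folds of 0.915 to 1.06. The log2 ratio of DROSHA to DGCR8, in the authors' FPKM (fragments scaled to gene length and library size), was 0.53, 0.53 and 0.49 in siNC and 0.74, 0.92 and 0.64 in siSOWAHA. These groups did not overlap, but with 3 libraries a side an exact two-sided permutation test cannot go below p = 0.1, its value here (Benjamini-Hochberg 0.14 over 7 ratios).

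The 3 genes whose log2 CPM ran closest to that of DROSHA over the 6 libraries, among 11309 genes that averaged 5 CPM or more, were PPHLN1 (Pearson r = 0.9944), TRMT2A (0.9935) and SS18L2 (0.9924). These correlations rest on 6 libraries of 2 groups and describe them only. PPHLN1, which encodes the HUSH silencing subunit periphilin, and TRMT2A, a tRNA methyltransferase, were themselves called higher, by log2 fold changes of 0.17 (edgeR adjusted p = 0.0179) and 0.25 (edgeR adjusted p = 0.00414). SS18L2 had 0.17 with an edgeR adjusted p of 0.117. TRMT2A is the neighbour of DGCR8 on the opposite strand, and their deposited spans share 1 base.

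XPO5 (gene 57510, chromosome 6, 43522334 to 43576038, minus strand) hands the hairpin from nucleus to cytoplasm. It had 155.6, 152.0 and 145.8 CPM in siNC and 163.5, 158.4 and 147.3 CPM in siSOWAHA. The groups overlapped, with siSOWAHA replicates 1 and 2 above the siNC range and replicate 3 inside it. The log2 fold change was 0.05 (SE 0.043, 95% interval -0.04 to 0.14; edgeR adjusted p = 0.513). The deposited span of POLR1C, on the opposite strand, covers the whole of XPO5 over 53705 bases. How the counting used strand is not stated, so reads of the pair may not be told apart; POLR1C had a log2 fold change of 0.05 (edgeR adjusted p = 0.587).

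In the Dicer complex no member passed the test. DICER1 (gene 23405, chromosome 14, 95086228 to 95158010, minus strand), the RNase III enzyme of the second cut, had 92.8, 93.0 and 93.2 CPM in siNC and 97.2, 96.1 and 96.2 CPM in siSOWAHA. The libraries of each group were almost equal, and the groups did not overlap, but the difference was small. Its log2 fold change was 0.05 (SE 0.039, 95% interval -0.03 to 0.14; edgeR adjusted p = 0.413), a fold of 0.98 to 1.10. The SD between replicates was 0.219 CPM in siNC and 0.58 CPM in siSOWAHA. The log2 ratio of DICER1 to DROSHA in FPKM went from a mean of -2.25 to -2.42 without overlap (exact permutation p = 0.1). DICER1 itself was not lower, so this ratio restates the higher DROSHA and is not a separate result. The log2 ratio of XPO5 to DROSHA, with the same denominator, was likewise lower without overlap (by 0.18, exact permutation p = 0.1).

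TARBP2 (gene 6895, chromosome 12, 53501283 to 53506431, plus strand) and PRKRA (gene 8575, chromosome 2, 178431414 to 178451175, minus strand) encode the double-stranded RNA binding partners of DICER1. TARBP2 had 46.9, 48.6 and 45.2 CPM in siNC and 45.5, 46.2 and 47.6 CPM in siSOWAHA. PRKRA had 54.6, 52.4 and 50.7 CPM in siNC and 49.6, 49.7 and 52.6 CPM in siSOWAHA. Both sets of libraries overlapped. The log2 fold changes were -0.02 for TARBP2 (95% interval -0.12 to 0.09; edgeR adjusted p = 0.893) and -0.05 for PRKRA (-0.16 to 0.05; edgeR adjusted p = 0.536). The log2 ratio of TARBP2 to PRKRA in FPKM was 0.18 ± 0.056 in siNC and 0.22 ± 0.020 in siSOWAHA (SD, n = 3 each; exact permutation p = 0.3).

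The span of the long noncoding gene CHROMR shares 8830 bases with PRKRA on the opposite strand. CHROMR fell from 16.6, 15.0 and 15.4 CPM to 11.5, 11.9 and 7.96 CPM (log2 fold change -0.59, SE 0.128; edgeR adjusted p = 0.00502), with no overlap. Reads of the pair may likewise not be told apart.

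**Figure D2:**
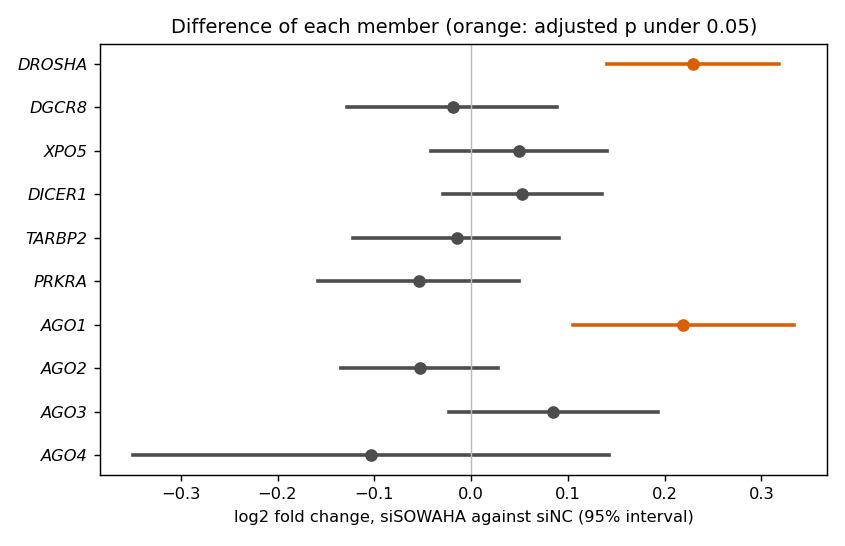
Log2 fold change of each of the 10 genes in siSOWAHA against siNC (horizontal axis, with the 95% interval of the edgeR fit), with genes listed by role. The intervals of DROSHA, 0.14 to 0.32, and AGO1, 0.11 to 0.33, lie right of 0, and the other 8 include 0; that of AGO4, -0.35 to 0.14, is the widest.

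Among the Argonautes, AGO1 was the only one called. AGO1 (gene 26523, chromosome 1, 35869761 to 35930532, plus strand), an Argonaute that represses targets mainly without cutting them, had 72.2, 65.7 and 72.5 CPM in siNC and 87.2, 76.9 and 81.0 CPM in siSOWAHA. All siSOWAHA libraries were above all siNC libraries, with control replicate 2 the lowest and siSOWAHA replicate 1 the highest. The log2 fold change was 0.22 (SE 0.054; edgeR adjusted p = 0.0109). Without siNC replicate 2 the edgeR adjusted p was 0.0627, at a log2 fold change of 0.18, and without siSOWAHA replicate 1 it was 0.054, at 0.17. AGO1 thus lost its call in 2 of the 15 other fits, so its call depends on single libraries.

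AGO2 (gene 27161, chromosome 8, 140520156 to 140635633, minus strand), the slicing Argonaute, had 134.5, 131.9 and 128.7 CPM in siNC and 131.3, 125.0 and 124.5 CPM in siSOWAHA. One siSOWAHA library lay within the siNC range and the other two below it. The log2 fold change was -0.05 (SE 0.038, 95% interval -0.13 to 0.03; edgeR adjusted p = 0.403).

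AGO3 (gene 192669, chromosome 1, 35925683 to 36072500, plus strand) had 42.4, 43.1 and 45.5 CPM in siNC and 47.4, 45.6 and 46.0 CPM in siSOWAHA. The groups did not overlap, by the small gap between siNC replicate 3 and siSOWAHA replicate 2. Its log2 fold change of 0.09 (SE 0.051, 95% interval -0.02 to 0.19) did not pass the test (edgeR adjusted p = 0.302). AGO4 (gene 192670, chromosome 1, 35807630 to 35857890, plus strand), the least abundant in CPM, had 13.7, 14.5 and 13.1 CPM in siNC and 15.2, 12.5 and 10.7 CPM in siSOWAHA. The siSOWAHA libraries ran from above to below all controls, with an SD of 2.26 against 0.673 CPM. The log2 fold change was -0.10 (SE 0.115, 95% interval -0.35 to 0.14; edgeR adjusted p = 0.629).

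AGO4, AGO1 and AGO3 stand in a row on chromosome 1, with 11870 bases between the spans of AGO4 and AGO1, while those of AGO1 and AGO3 share 4850 bases on the same strand. Reads in the shared stretch can belong to either gene. With AGO1 and AGO3 summed as 1 gene, a check chosen after the data were seen, the log2 fold change was 0.17 (edgeR adjusted p = 0.0154).

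AGO1 made up 33.4, 31.4 and 34.1% of the summed Argonaute FPKM in siNC and 37.3, 36.0 and 37.8% in siSOWAHA. AGO2 made up 46.2, 46.8 and 44.9% in siNC and 41.7, 43.5 and 43.2% in siSOWAHA. Neither set overlapped, while AGO3 (10.2% against 10.5%) and AGO4 (10.8% against 9.68%) did. The log2 ratio of AGO1 to AGO2 in FPKM was -0.48 ± 0.090 in siNC and -0.21 ± 0.056 in siSOWAHA (SD, n = 3 each), and its exact two-sided permutation p was 0.1, the smallest possible (Benjamini-Hochberg 0.14). The ratio of AGO3 to AGO2 was 0.14 higher without overlap, and that of AGO4 to AGO2 overlapped (exact permutation p = 0.7). Per kilobase of coding sequence, the shares were 27.1% against 30.6% for AGO1 and 50.8% against 47.4% for AGO2, in the same directions.

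**Figure D3:**
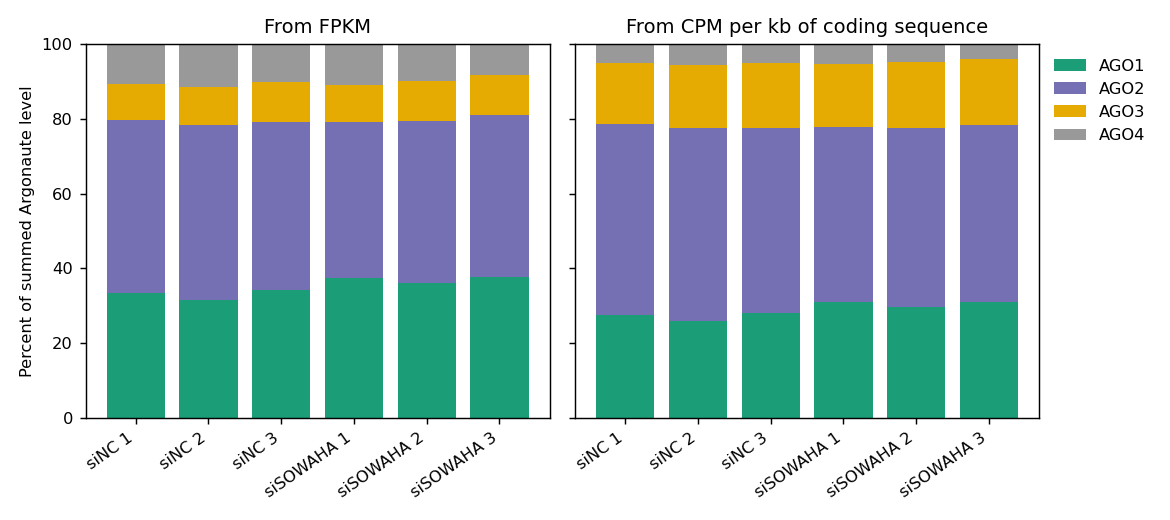
Percent of the summed Argonaute level held by AGO1, AGO2, AGO3 and AGO4 in each of the 6 libraries, from the authors' FPKM and from CPM per kilobase of coding sequence; stacked bars sum to 100%. The AGO1 segment is taller in every siSOWAHA library than in every siNC library, at 36.0 to 37.8% against 31.4 to 34.1% on the FPKM scale, and the AGO2 segment is shorter. Because shares sum to 100%, these are not separate results.

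Levels between genes were compared per length. In the authors' FPKM the siNC means fell in the order XPO5 (25.8), TARBP2 (23.2), PRKRA (20.5), DROSHA (20.1), DGCR8 (14.1), AGO2 (6.51), AGO1 (4.67), DICER1 (4.24), AGO4 (1.53) and AGO3 (1.45). Only the neighbours PRKRA and DROSHA, and AGO4 and AGO3, had overlapping siNC ranges. In siSOWAHA DROSHA stood at rank 2 instead of 4, with a mean of 23.3 FPKM, but its libraries overlapped those of TARBP2, which ran from 22.3 to 23.2 FPKM. AGO3 stood above AGO4 there, with 1.49 to 1.56 FPKM inside the AGO4 range of 1.18 to 1.68.

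The order depends on the length used. The length implied by count and FPKM is long for the Argonautes and DICER1, at 30.3 kilobases for AGO3, 22.1 for DICER1, 20.4 for AGO2 and 15.1 for AGO1, and 2.0 for TARBP2. Per kilobase of the longest coding sequence (GENCODE 29), a scale added after seeing the data, the siNC order was PRKRA (56.0 CPM per kilobase), AGO2 (51.1), TARBP2 (42.7), XPO5 (41.8), DROSHA (32.5), DGCR8 (29.6), AGO1 (27.3), AGO3 (16.9), DICER1 (16.1) and AGO4 (5.33). On this scale AGO2 stood second instead of sixth, and only the neighbours TARBP2 and XPO5 overlapped. DROSHA was at rank 5, AGO3 at rank 8 and AGO4 at rank 10 in both groups on this scale.

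**Figure D4:**
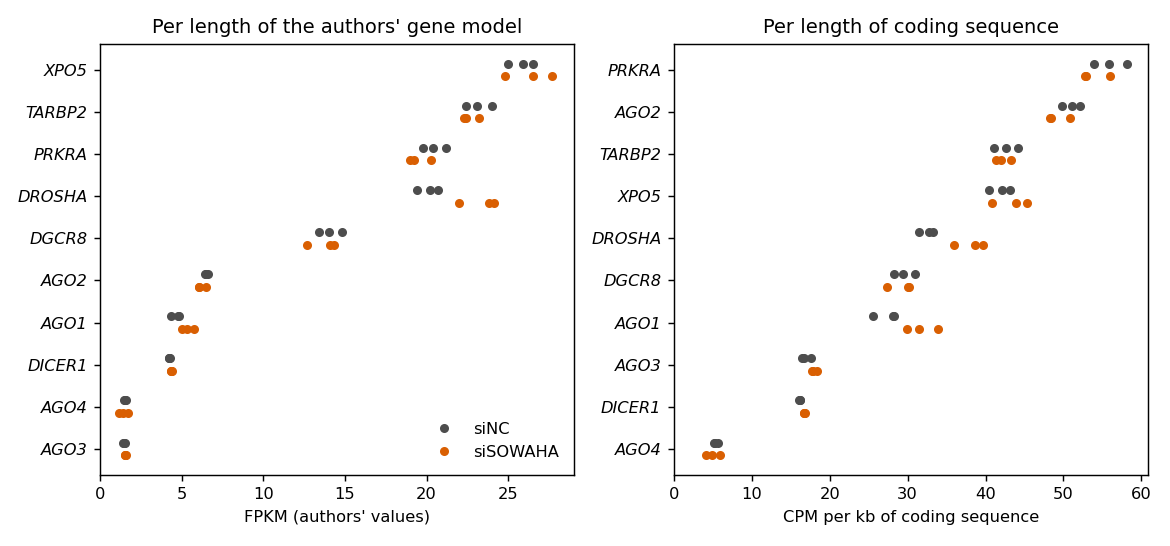
Level of each of the 10 genes in each library, in the authors' FPKM and in CPM per kilobase of coding sequence (horizontal axes); points are libraries, coloured by group. AGO2 lies at 6.39 to 6.63 FPKM in siNC, far below XPO5 at 25.0 to 26.5, but at 50.0 to 52.2 CPM per kilobase of coding sequence, above XPO5 at 40.4 to 43.1.

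The same reads in FPKM gave fewer calls. With limma on log2(FPKM + 1), 1 of 10 members passed (DROSHA, log2 fold change 0.20, limma adjusted p = 0.0175), where 20.0% of 12027 genes passed in either direction and 9.20% passed higher. AGO1 had 0.17 (limma adjusted p = 0.0862), and the scale of log2(value + 1) understates the change of genes as low as AGO3 and AGO4.

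The second question was how the partners around the core machinery stood. In the plot of pathway lists and in the counts that follow, the edgeR fit over all genes is used, beside the 16.9% of all genes called. A total of 37 genes of 10 lists were called, of which 18 were also called in all 6 fits that leave out 1 library. Of all tested genes 9.12% were called higher and 7.77% lower. The called share was 20.0% for cofactors, 21.4% for the silencing scaffold, 23.5% for deadenylases and 20.0% for decapping. For double-stranded RNA genes it was 18.8% and for microRNA hosts 12.9%. These shares are near the background. It was 28.6% for tailing and turnover, 57.1% for 7 export and import partners and 50.0% for 14 chaperone list genes and 6 PIWI genes. No list was tested as a set.

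Among 15 tested cofactors of the microprocessor, 0 were higher and 3 lower (list median -0.02). At an unadjusted p under 0.05 edgeR gave 1 higher and 4 lower, and both DESeq2 and limma-voom called 0 higher, with 4 and 3 lower. NCBP2, the small cap-binding subunit, fell from 184.5, 190.5 and 188.5 CPM to 167.2, 167.3 and 172.1 CPM (log2 fold change -0.15, edgeR adjusted p = 0.00511). DDX17 (-0.16, edgeR adjusted p = 0.00801) and DDX5 (-0.09, edgeR adjusted p = 0.0246) are RNA helicases that bind DROSHA. DDX17 lost its call without siNC replicate 1 or 3 (edgeR adjusted p up to 0.0553), and DDX5 kept it only without siNC replicate 3 or siSOWAHA replicate 2 (up to 0.136 otherwise).

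Of 7 export and import partners, 1 was higher and 3 were lower. XPO1, the exportin of proteins with a leucine-rich signal, fell from 498.1, 482.7 and 487.9 CPM to 413.0, 412.4 and 414.0 CPM (log2 fold change -0.25, edgeR adjusted p = 1.22e-05). RANBP2 (-0.11) and RANGAP1 (-0.11), which serve the Ran cycle at the pore, were also lower, and the importin KPNB1 was higher (0.11). With 1 library left out, RANBP2 was called only without siNC replicate 2 (edgeR adjusted p up to 0.129 otherwise), RANGAP1 only without siNC replicate 2 or siSOWAHA replicate 1 (up to 0.176 otherwise), and KPNB1 lost its call without siSOWAHA replicate 3 (0.0581). RAN, the GTPase that XPO5 needs, had a log2 fold change of 0.05 (edgeR adjusted p = 0.34).

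Of 14 chaperones and other factors listed around Argonaute loading, 6 were higher and 1 lower (list median 0.075). Many of them are general HSP90 and HSP70 chaperones or co-chaperones, so these counts are not specific to the loading of Argonautes. FKBP4, an HSP90 co-chaperone, rose from 274.4, 270.8 and 275.9 CPM to 364.1, 368.6 and 357.4 CPM (log2 fold change 0.41, edgeR adjusted p = 1.59e-07). AHSA1, which speeds the HSP90 ATPase, rose by 0.37 (edgeR adjusted p = 4.69e-06), and HSP90AA1 by 0.21 and HSP90AB1 by 0.14. PTGES3, the co-chaperone p23, fell by 0.17 on the log2 scale (edgeR adjusted p = 0.000479). These 5 kept their calls in each fit that left out 1 library. The other 2 called higher, HSPA4 and STIP1, at 0.11 each, lost theirs without siNC replicate 1, siNC replicate 3 or siSOWAHA replicate 2 (edgeR adjusted p up to 0.064 and 0.0716). Counts of the HSP90 genes are uncertain, since processed copies of them exist elsewhere.

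Of 14 genes of the silencing scaffold that Argonautes recruit, 1 was higher and 2 were lower. AJUBA, a LIM protein of P bodies, fell by 0.34 (edgeR adjusted p = 0.000992), FXR1 rose by 0.17 (edgeR adjusted p = 0.00775), and TNRC6A, the GW182 protein that binds Argonautes, fell by 0.15 (edgeR adjusted p = 0.0276). TNRC6A is listed on an alternate or patch scaffold, so its count is uncertain, and with 1 library left out it was called only without siNC replicate 2 (up to 0.105 otherwise).

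Of 17 genes of deadenylase complexes and of the proteins that recruit them, 3 were higher and 1 lower. These were TOB2 (0.28, edgeR adjusted p = 0.0024), BTG2 (0.22, edgeR adjusted p = 0.0338) and BTG1 (0.16, edgeR adjusted p = 0.00609), which recruit the CCR4-NOT complex, and PAN2 (-0.20, edgeR adjusted p = 0.033). With 1 library left out, BTG2 was called only without siSOWAHA replicate 2 (up to 0.118 otherwise) and PAN2 only without siNC replicate 2 or siSOWAHA replicate 1 (up to 0.152 otherwise). In the decapping list 2 of 10 were higher and 0 lower; at an unadjusted p under 0.05 edgeR gave 4 higher and 1 lower, and DESeq2 and limma-voom each called 2 and 0. DCP2, the decapping enzyme, rose from 31.6, 32.0 and 30.5 CPM to 44.3, 47.4 and 42.7 CPM (log2 fold change 0.52, edgeR adjusted p = 1.96e-05). EDC3, an enhancer of decapping, rose by 0.16 (edgeR adjusted p = 0.0234), and with 1 library left out was called only without siSOWAHA replicate 3 (up to 0.104 otherwise).

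Of 14 genes that tail, trim or turn over microRNAs, 3 were higher and 1 lower. TENT4B, a poly(A) polymerase, rose by 0.28 (edgeR adjusted p = 0.00105), SND1, a nuclease associated with silencing complexes, by 0.18 (edgeR adjusted p = 0.0012), and ZC3H12A, a ribonuclease, by 0.25 (edgeR adjusted p = 0.0186). XRN2, a 5' to 3' nuclease, fell by 0.11 (edgeR adjusted p = 0.0423). ZC3H12A lost its call without siNC replicate 2 or siSOWAHA replicate 3 (up to 0.0837), and XRN2 kept it only without siSOWAHA replicate 2 (up to 0.177 otherwise).

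Of 16 tested genes that bind or sense double-stranded RNA, 0 were higher and 3 lower; at an unadjusted p under 0.05 edgeR gave 2 higher and 5 lower, and DESeq2 and limma-voom each called 0 and 3. The oligoadenylate synthases OAS2 and OAS1 fell. OAS2 had 8.30, 8.70 and 8.12 CPM in siNC and 5.02, 5.26 and 5.73 CPM in siSOWAHA (log2 fold change -0.65, edgeR adjusted p = 0.00224), and OAS1 had a log2 fold change of -0.34 (edgeR adjusted p = 0.00619). ADAR, an editing enzyme, had -0.11 (edgeR adjusted p = 0.0269), and with 1 library left out was called only without siSOWAHA replicate 1 (up to 0.107 otherwise). EIF2AK2, the sensor kinase PKR that PRKRA can activate, had -0.08 (edgeR adjusted p = 0.217).

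Of 6 tested genes of the PIWI pathway, which guards the germ line, 0 were higher and 3 lower; at an unadjusted p under 0.05 edgeR gave the same counts, and DESeq2 and limma-voom each called 0 and 3. All 3 were of low level. PIWIL1 had 6.17, 5.71 and 5.17 CPM in siNC and 3.30, 2.08 and 3.22 CPM in siSOWAHA (log2 fold change -0.99, edgeR adjusted p = 0.00204), but is listed on an alternate or patch scaffold, so its count is uncertain. PIWIL2 had -0.85 (edgeR adjusted p = 0.0112) and PIWIL4 -0.36 (edgeR adjusted p = 0.0211), but PIWIL2 lost its call without siNC replicate 2 (0.0687), and PIWIL4 kept it only without siNC replicate 1 or siSOWAHA replicate 1 (up to 0.0783 otherwise).

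**Figure D5:**
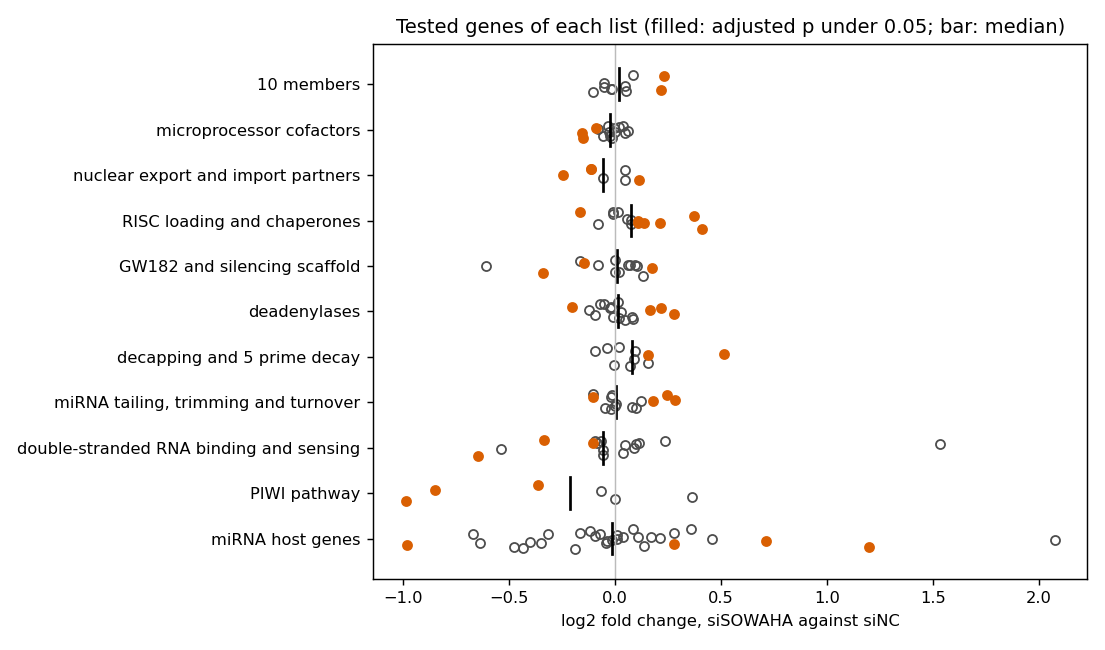
Log2 fold change of each tested gene (points) in the 10 core genes and in the lists of partners, siSOWAHA against siNC (horizontal axis), with the list median. The list of 14 chaperones and other factors has 6 genes called higher and 1 lower, and the 6 PIWI genes have 3 called lower. Filled points are called and bars are medians.

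MicroRNA host genes carry the hairpins that DROSHA cuts, so their transcripts are the substrate side. Of 81 such genes listed 31 were tested, 3 were higher and 1 lower. The list holds genes whose names begin with MIR and end in HG, with DLEU2 added by hand. Hosts with other names were not searched. For the hosts called higher, 1 chosen mature arm of each hairpin looked up is shown with its seed in capitals, from RefSeq on GRCh38.p14, grouped by host and shared seed. Other arms, and other hairpins these hosts may hold, are not shown.
hsa-miR-15a-5p: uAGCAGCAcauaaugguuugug
hsa-miR-16-5p: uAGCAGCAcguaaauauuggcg
hsa-miR-17-5p: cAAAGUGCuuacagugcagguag
hsa-miR-20a-5p: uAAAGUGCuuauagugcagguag
hsa-miR-19a-3p: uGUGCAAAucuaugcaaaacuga
hsa-miR-19b-3p: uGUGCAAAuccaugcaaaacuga
hsa-miR-18a-5p: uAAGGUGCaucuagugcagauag
hsa-miR-92a-3p: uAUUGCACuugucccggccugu
hsa-miR-193b-3p: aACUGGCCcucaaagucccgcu
The first pair comes from DLEU2 on chromosome 13, the next 6 from the miR-17-92 cluster in MIR17HG, also on chromosome 13, and the last from MIR193BHG on chromosome 16. DLEU2 rose from 9.53, 10.8 and 10.9 CPM to 16.5, 17.7 and 17.0 CPM (log2 fold change 0.71, edgeR adjusted p = 6.5e-05). The groups did not overlap, and it stayed called in each fit that left out 1 library. MIR17HG had 12.9, 12.7 and 11.5 CPM in siNC and 14.1, 15.2 and 15.7 CPM in siSOWAHA (0.28, edgeR adjusted p = 0.0484), and MIR193BHG went from 0.729, 0.554 and 0.526 CPM to 1.02, 1.51 and 1.61 CPM (1.20, edgeR adjusted p = 0.0207). MIR210HG was lower (-0.98, edgeR adjusted p = 0.0284), and is listed on an alternate or patch scaffold, so its count is uncertain. With 1 library left out, MIR17HG was called only without siSOWAHA replicate 1 (up to 0.187 otherwise), MIR193BHG only without replicate 1 of either group (up to 0.0864) and MIR210HG only without replicate 2 of either group (up to 0.135). MIR17HG was not called by DESeq2 (adjusted p = 0.0682) or limma-voom (adjusted p = 0.0571). A host transcript that survives in poly(A) RNA is not a measure of the mature microRNA.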

How the data were processed

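Poly(A) RNA of 6 SW620 libraries was sequenced, per the labels, from strand-specific libraries. The submitters' processing notes name cutadapt 1.9, FastQC and the build GRCh38; they name no aligner, counting program or strand setting. The authors deposited raw counts for 39554 genes and, for 24901 of them, FPKM values beside identical counts. RefSeq symbols were given to 95.9% of IDs, which held 99.91% of counts. Replicates differed by more than sampling noise (chi-square per degree of freedom 7.82 to 14.04).

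Under R 4.3.3, edgeR 4.0.16 tested the counts (genes kept by filterByExpr, TMM factors, robust quasi-likelihood F test, adjusted p at 0.05), and log2(FPKM + 1) with limma 3.58.1 for genes at 1 FPKM or more in 3 libraries. DESeq2 1.42.0, limma-voom, other scalings and filters, a replicate block and single libraries left out were alternatives. Steps were tested on simulated counts, where 54% of 50 genes changed 1.25-fold and 76% of 50 changed 1.5-fold were called. The changed genes were drawn over a wide range of levels. A gene without a call may therefore still have changed by a small amount. The common biological coefficient of variation was 0.105. Titles share replicate numbers. Deviations from the group mean correlated at -0.1, 0.041 and 0.035 between same-numbered libraries and at -0.131 to 0.102 between differently numbered ones. With 3 libraries a group, this cannot show whether the numbers mark pairs.

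The genes and lists were chosen with earlier results of these data known. The text names all 10 genes and up to 5 called genes of each list, chosen by the size of the log2 fold change and not printed in that order; RAN, EIF2AK2, HSPA4, STIP1 and the named marker genes were added after their values were seen. Where a fit leaves out a library, its group has 2.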

Additional observations from a re-analysis of the deposited data

How the results depend on the processing

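The count of 2 of 10 genes called higher held under RLE, upper-quartile and unscaled library totals, both other filters, DESeq2, limma-voom, the fit without the robust step, the replicate block and the AGO1 with AGO3 sum; at an adjusted p threshold of 0.01 it was 1 (DROSHA), and it ranged from 1 to 2 with single libraries left out. The count lower was 0 throughout. In the replicate block, where DROSHA had an adjusted p of 0.00826 and AGO1 0.00814, no call of the 10 genes changed. Over all pathway lists 19 higher and 18 lower calls became 13 to 18 and 9 to 14 with single libraries left out. In FPKM 1 gene called became 0 with no filter and ranged from 0 to 1 with single libraries left out. With single libraries left out, the sign of genes near 0 reversed: DGCR8 ran from -0.05 to 0.028, TARBP2 from -0.042 to 0.011 and AGO4 from -0.244 to 0.011, and on the FPKM scale DGCR8 from -0.064 to 0.015 and XPO5 from -0.005 to 0.072. The cause was not tested. Scaling moved the median of all genes by under 0.1 (log2). AGO4, the gene of the 10 with the fewest reads, rests on 572 to 862 counts per library, and the part of counting error in its spread was not tested. Of the list genes named, limma-voom ended the calls of PAN2 (adjusted p = 0.0649), RANGAP1 (0.0503), XRN2 (0.0573) and MIR17HG, and the replicate block those of BTG2 (0.0586), XRN2 (0.0554), MIR17HG (0.0824), MIR193BHG (0.0522) and MIR210HG (0.0609). Without the robust step the calls of RANBP2 (0.0555), PAN2 (0.0517), RANGAP1 (0.0655), XRN2 (0.0655), MIR17HG (0.0513) and CDH1 (0.0607) ended, and lower calls over all lists went from 18 to 14. Library totals alone ended BTG2 (0.0509) and MIR17HG (0.0626), and upper-quartile scaling (0.064), no filter (0.0606) and DESeq2 (0.0682) also ended MIR17HG; the replicate block also ended CDH1 (0.0548).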

Other observations

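MIR3142HG, the host transcript of miR-3142 and miR-146a, was singled out after its values were seen. It had 9.32, 0 and 0 CPM in siNC replicates 1, 2 and 3 and 13.1, 14.4 and 11.2 CPM in siSOWAHA, and did not pass the edgeR test (adjusted p = 0.547). On the log2(FPKM + 1) scale it passed with limma (log2 difference 1.86, adjusted p = 0.0453). The calls differ between the tests, and 2 of the 3 siNC libraries are listed at 0.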
